A study of Homo sapiens with 12 samples.

Results

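Glutathione S-transferases were followed in LNCaP cells through 10 genes: the cytosolic enzymes GSTP1, GSTM1, GSTM2, GSTM3, GSTA1, GSTA4 and GSTO1, the organelle enzyme GSTK1, and the membrane enzymes MGST1 and MGST2. A probe was taken as a member when its symbol in the platform annotation was 1 of these 10 names. This gave 19 of the 47323 probes of the deposited normalized table, and 10 of the 20046 genes named there. The genes were chosen by name rather than by a cut on their values, though earlier results of these data were known.

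LNCaP is an androgen-responsive human cell line from a prostate cancer metastasis. Illumina bead arrays read the total RNA of 12 samples of it. Per the labels, 6 arrays came from cells transfected with pcDNA3.1_FoxA1, a plasmid that carries the full-length cDNA of the pioneer transcription factor FOXA1, and 6 from cells transfected with pcDNA3.1_GFP. All cells received a plasmid with a lipid reagent and were harvested after 48 h, and the labels name no untransfected group. Transfection was transient, so each sample mixes cells with and without the plasmid in unknown proportion. The labels do not tell if each replicate was its own culture, so the spread behind the p-values may be technical only. The comparison asks how FOXA1 overexpression affects gene expression in this line.

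Glutathione S-transferases couple the tripeptide glutathione to reactive, electrophilic compounds, and the conjugates are then pumped out of the cell. The soluble enzymes fall into classes named by Greek letters (alpha, mu, pi, omega and others), while the microsomal enzymes are small proteins of intracellular membranes. Many of these genes respond to the transcription factor NRF2 through a short motif called the antioxidant response element. In the prostate, GSTP1 is known as a gene of normal basal epithelium whose promoter is methylated and silenced in most prostate cancers, LNCaP among them.

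The promoter sequences are shown because of what is known of GSTP1 promoter methylation in this line, and because FOXA1 binds the forkhead motif. Methylation was not measured here. RefSeq entries for GRCh38.p14 were found for 9 of the 10 genes, and the 250 bases before the annotated start were searched on both strands. Capitals mark matches to TGACNNNGC, the core of the antioxidant response element, and to TGTTTAC or TATTTAC, forms of the forkhead motif; these motifs overlapped nowhere in the sequences shown. The sequences with a match are those of GSTP1 (chr11:67583562-67583811, plus strand), GSTM1 (chr1:109687567-109687816, plus strand), GSTA4 (chr6:52995285-52995534, minus strand) and GSTO1 (chr10:104254642-104254891, plus strand), each written 5′ to 3′.
GSTP1: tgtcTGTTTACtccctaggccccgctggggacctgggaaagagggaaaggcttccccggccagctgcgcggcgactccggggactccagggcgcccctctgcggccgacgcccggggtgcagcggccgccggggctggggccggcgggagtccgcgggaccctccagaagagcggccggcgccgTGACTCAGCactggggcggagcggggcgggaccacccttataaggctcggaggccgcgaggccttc
GSTM1: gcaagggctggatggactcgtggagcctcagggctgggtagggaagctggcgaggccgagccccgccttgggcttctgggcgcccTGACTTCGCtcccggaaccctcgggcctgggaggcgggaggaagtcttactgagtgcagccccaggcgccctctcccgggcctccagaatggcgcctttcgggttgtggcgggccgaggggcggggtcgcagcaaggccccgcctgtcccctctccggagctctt
GSTA4: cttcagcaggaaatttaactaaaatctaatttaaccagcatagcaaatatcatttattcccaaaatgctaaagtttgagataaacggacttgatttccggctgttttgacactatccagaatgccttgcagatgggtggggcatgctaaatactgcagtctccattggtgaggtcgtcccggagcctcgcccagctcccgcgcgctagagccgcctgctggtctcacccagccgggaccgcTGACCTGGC
GSTO1: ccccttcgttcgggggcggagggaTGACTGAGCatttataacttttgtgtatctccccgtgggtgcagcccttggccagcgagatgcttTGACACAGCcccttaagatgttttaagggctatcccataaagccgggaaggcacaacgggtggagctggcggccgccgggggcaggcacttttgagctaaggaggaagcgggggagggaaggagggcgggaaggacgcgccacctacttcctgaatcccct

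The GSTP1 sequence held 28 CG dinucleotides in 250 bases, where the median of all 35116 promoters was 11 and 84.1% of them held fewer. It had TGACTCAGC at -66 to -58 and TGTTTAC at -246 to -240, counted from the start. A forkhead match was present in 5.27% of all promoters of this length, and of the 9 member genes GSTP1 alone had one. The antioxidant core was present in 10.9% of all promoters, once in GSTP1, GSTM1 and GSTA4 and at 2 places in GSTO1. At the other end, the GSTA1 and GSTM3 sequences held 1 CG each and no match. A match describes these letters and shows no binding.

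Signals were read on a log2 scale after the authors' normalization between arrays. As an estimate of background, the 95th percentile of the 784 probes that only the non-normalized table holds was taken on each array, and it lay between 7.62 and 7.70 on the normalized scale with a mean of 7.65. Before normalization, between 32.8% and 36.4% of the probes of an array stood above it. What the 784 probes were designed to read is unknown, so treating them as background is an assumption. Of these, 11 had a mean above 9 before normalization. Each statement below that a signal lay above background rests on this assumption. The line's own markers were present: 8 of 8 measured luminal prostate genes, among them KLK3 and HOXB13, lay above background. Of 32 measured markers of basal, stromal, blood and liver cells, 8 also lay above it in their mean, among them VIM, CD68 and ALB, so a signal above the estimate does not by itself show a cell type's expression. Arrays GFP 3, FOXA1 4 and FOXA1 3 stood apart from the others, with scores of 0.51, 0.48 and 0.34 on the leading component of the residuals, which held 46.0% of their variance.

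FOXA1 itself was bright in both groups. Its level was 13.42 ± 0.13 (SD, n = 6) on the arrays labelled FOXA1 and 13.30 ± 0.16 (SD, n = 6) on the GFP arrays, and 2 of 6 FOXA1 arrays lay above every GFP array. The difference was 0.13 with a 95% interval from -0.06 to 0.31 (limma adjusted p = 1.00 over all probes, exact permutation p = 0.165), so higher FOXA1 in the arrays labelled so was not shown at the level of this 1 probe. Without the 3 arrays that stood apart the difference was 0.04. Whether this probe reads the transcript of the plasmid was not tested. The differences below therefore compare arrays by label, and the size of the FOXA1 rise behind them is not known.

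Across the family, 8 of 10 genes were above background and none of the 10 passed the test between FOXA1 and GFP arrays. GSTP1, GSTM3, GSTA1, GSTA4, GSTK1, GSTO1, MGST1 and MGST2 had a mean above the background estimate and lay above it on 12 of 12 arrays, while GSTM1 and GSTM2 did not. Among all 20044 genes tested, the share above background was 47.7%. In limma, 0 of 19 member probes passed an adjusted p of 0.05, against 0.0% of all 47317 probes tested. At an unadjusted p under 0.05 there were 0 member probes, against 3.17% of all probes (1502 in number). The groups overlapped for each of the 19 probes, where 0.12% of all probes had groups that did not overlap.

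**Figure D1:**
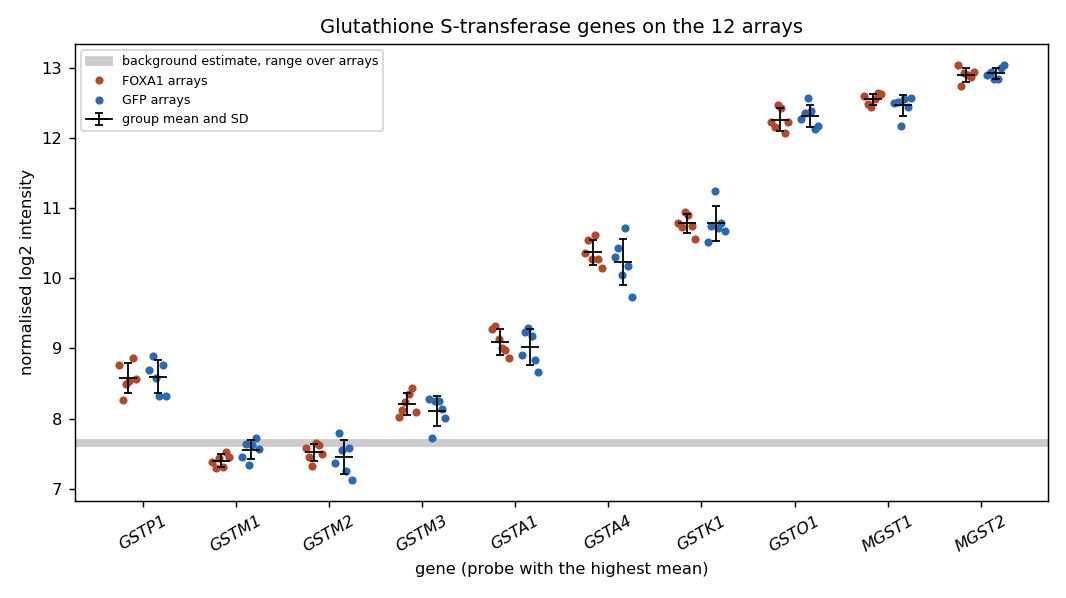
Normalised log2 intensity (vertical axis) of the probe with the highest mean of each gene, with 1 point per array, FOXA1 arrays in red and GFP arrays in blue, and bars for the group mean and SD (n = 6 each). The grey band spans the background estimate, 7.62 to 7.70. GSTM1 and GSTM2 lie at or under the band, the 2 groups overlap for every gene, and heights of different genes cannot be compared because each probe has its own brightness.

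GSTP1, the pi-class enzyme, was read by 1 probe, and this probe lay above the background estimate. Its level on the FOXA1 arrays ran from 8.26 to 8.87 with a median of 8.54, and on the GFP arrays from 8.33 to 8.89 with a median of 8.64. The groups covered almost the same span, with FOXA1 2 lowest and GFP 2 highest. On each of the 12 arrays the probe stood above that array's background estimate, by at least 0.63 on the log2 scale, and the mean was 0.94 above it, or 1.92-fold. Of 10 measured leukocyte markers, 2 lay above background, CD68 at 1.85-fold and HLA-DRA at 2.03-fold, and the others did not. Whether LNCaP cells transcribe these 2 genes was not tested, and levels of different probes cannot be compared. An excess of 1.92-fold over the estimate does not settle whether GSTP1 was silent. GSTP1 also lay below the 99th percentile of the 784 probes, 10.81, but that limit lies among 11 bright probes of this set. KLK3, at 10.34, lay below it too, so it does not bear on GSTP1. Whether the probe also reads other transcripts was not tested. Of 7 measured markers of basal cells, which express GSTP1 in the prostate, 6 did not exceed the estimate in their mean, KRT5 and KRT14 among them. SERPINB5 did, and it was above background on 11 of 12 arrays. The mean of the 7 ran from 7.25 to 7.37 on FOXA1 arrays and from 7.23 to 7.43 on GFP arrays. Any relation of these markers to the GSTP1 signal was not tested.

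GSTP1 differed by -0.02 between FOXA1 and GFP arrays, with a 95% interval from -0.26 to 0.22. In intensity this interval spans 0.835-fold to 1.16-fold (limma adjusted p = 1.00, exact permutation p = 0.861). No background was subtracted from the deposited values here, and how the authors treated background is not given. For a probe this close to background the change in transcript could therefore be larger than the change in intensity.

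The mu-class genes are neighbours on chromosome 1 and encode closely related enzymes, so a probe of 1 may read another, and their values are uncertain in that sense. GSTM1, which is missing from the genome of many people, had 3 probes, and the brightest exceeded background on 1 of 12 arrays (GFP 5) while the others did so on 0. GSTM2 had 2 probes; the brighter exceeded background on 2 arrays, FOXA1 5 and GFP 2, and the other on 0. Both genes were therefore not well above background in either group, and no fold is given for them.

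The 3 GSTM1 probes gave differences of 0.14, -0.16 and -0.08, which do not share a sign. The brightest of them had 7.40 ± 0.09 (SD, n = 6) on FOXA1 arrays and 7.56 ± 0.14 (SD, n = 6) on GFP arrays. It had the smallest p of any member probe (unadjusted p = 0.056 and adjusted p = 1.00 in limma, exact permutation p = 0.039). With the 3 probes averaged, the GSTM1 difference was -0.03. Neither signal was above background, so these values do not measure a transcript above background.

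GSTM3, a mu-class enzyme best known from testis and brain, was above background by a small margin. Its level ran from 8.02 to 8.44 on FOXA1 arrays, with a median of 8.18, and from 7.72 to 8.28 on GFP arrays, with a median of 8.19. GFP 2 was lowest, only 0.04 above that array's background. FOXA1 minus GFP was 0.10, equal to its standard error of 0.10 (limma adjusted p = 1.00), and it was 0.02 without GFP 2.

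The alpha class was represented by GSTA1, best known as a liver enzyme, and GSTA4, which clears lipid peroxidation products such as 4-hydroxynonenal. All 3 GSTA1 probes were above background on 12 of 12 arrays, with means of 8.27, 8.62 and 9.06. On the brightest, FOXA1 arrays ran from 8.86 to 9.32 with a median of 9.06, and GFP arrays from 8.67 to 9.29 with a median of 9.04. FOXA1 2 was highest and GFP 6 lowest. The differences of the 3 probes were 0.06, 0.04 and 0.07, below their standard errors of 0.11 to 0.13 (limma adjusted p = 1.00 for each). The difference of the brightest was 0.00 without GFP 6 and 0.13 without GFP 3. GSTA1 and its neighbour GSTA2 are near-identical genes, and their signals cannot be told apart with certainty.

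GSTA4 varied most among the members above background, by 0.98 on the log2 scale over the 12 arrays, or 1.98-fold. FOXA1 arrays ran from 10.15 to 10.62 with a median of 10.32, and GFP arrays from 9.73 to 10.71 with a median of 10.24. Both the lowest array, GFP 6, and the highest, GFP 4, were controls. The difference was 0.13 with a 95% interval from -0.14 to 0.41 (limma adjusted p = 1.00, exact permutation p = 0.42), and it ran from 0.03 without GFP 6 to 0.23 without GFP 4.

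The other soluble enzymes were well above background. GSTO1, an omega-class enzyme that acts as a thiol transferase and dehydroascorbate reductase, was read by 2 probes with means of 11.55 and 12.29. The brighter ran from 12.07 to 12.47 on FOXA1 arrays and from 12.12 to 12.57 on GFP arrays, with medians of 12.22 and 12.31. The 2 probes differed between groups by -0.06 and -0.05, each with a standard error of 0.09 (limma adjusted p = 1.00).

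GSTK1, the kappa-class enzyme of mitochondria and peroxisomes, ran from 10.56 to 10.95 on FOXA1 arrays and from 10.51 to 11.24 on GFP arrays, with medians of 10.76 and 10.73. GFP 3 stood above the other 11 arrays. The group means were both 10.78, with a 95% interval of the difference from -0.22 to 0.22 (limma adjusted p = 1.00). Without GFP 3 the difference was 0.09.

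The membrane enzymes were read by 1 probe for MGST2 and 4 for MGST1. MGST2, which also makes leukotriene C4, ran from 12.74 to 13.04 on FOXA1 arrays and from 12.83 to 13.04 on GFP arrays. Its range of 0.30 over 12 arrays was the narrowest of any member probe, and its difference was -0.02 with a 95% interval from -0.18 to 0.13 (limma adjusted p = 1.00).

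MGST1, the abundant microsomal and mitochondrial enzyme, had 4 probes, and they did not read alike. Probe 1 was below background on 12 of 12 arrays with a mean of 6.61, and the others had means of 10.65, 8.42 and 12.50. On the brightest, FOXA1 arrays ran from 12.44 to 12.64 with a median of 12.57, and GFP arrays from 12.17 to 12.56 with a median of 12.51. Here 3 of 6 FOXA1 arrays lay above every GFP array, and GFP 3 was lowest. FOXA1 minus GFP was 0.10 (standard error 0.08, limma adjusted p = 1.00, exact permutation p = 0.167), and 0.04 without GFP 3. Probes 2 and 3 gave -0.08 and -0.06, the opposite sign, and the mean over the 4 probes gave 0.00. A direction for MGST1 therefore depends on the probe.

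**Figure D2:**
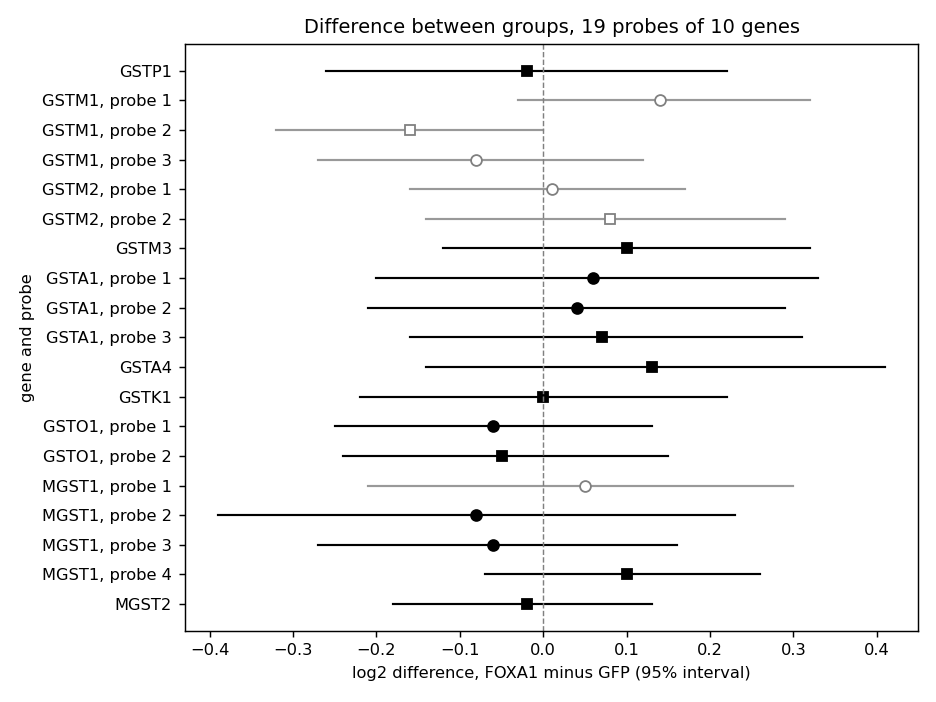
Log2 difference, FOXA1 minus GFP, with its 95% interval from limma (horizontal axis), for the 19 probes of the 10 genes. Squares are the probe with the highest mean of a gene and circles the others, and open grey symbols are probes below background on at least 1 array. Each interval reaches 0 or crosses it, and the differences lie between -0.16 and 0.14.

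The 10 genes as a list gave differences of about the size seen over the whole array. With 1 probe per gene, 6 differences were above 0 and 4 below, with a median of 0.04 and a median size of 0.08, where all 20044 genes had a median of 0.01 and a median size of 0.06. Over all 19 probes, 11 were above 0 and 8 below. Among probes above background, the highest upper end of an interval was 1.33-fold, for GSTA4, and the lowest end was 0.763-fold, for MGST1 probe 2, so changes of 1.5-fold in intensity lay outside the interval for each of them.

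The probes of a gene could be set against each other over the 12 arrays, and the members against each other, in 43 relations with 1 point per array. The points share an array's RNA quality and normalization, so these are descriptions of the arrays. GSTA1 probes 2 and 3 moved together (Pearson's r = 0.85, permutation p = 0.00038, adjusted p = 0.0163 over 43 relations; Spearman's rho = 0.77, permutation p = 0.00488). The relation held within groups, at 0.75 in FOXA1 and 0.91 in GFP arrays (n = 6 each), and was 0.71 without FOXA1 6 and GFP 6. The other 42 did not pass the adjusted threshold.

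**Figure D3:**
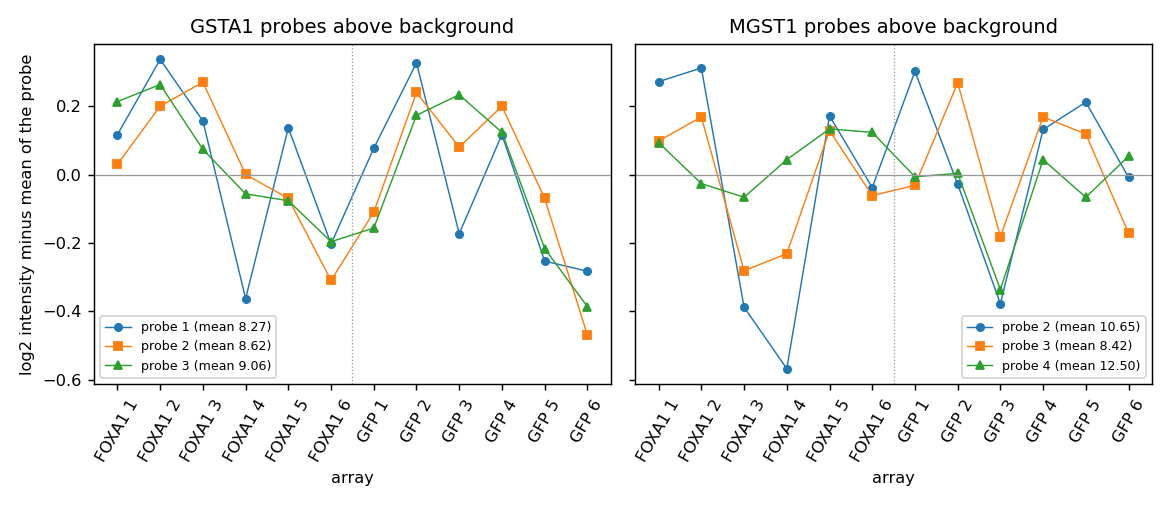
Log2 intensity of each probe minus its own mean over 12 arrays (vertical axis) by array, for the GSTA1 probes (left) and the MGST1 probes above background (right). All 3 GSTA1 probes lie above their means on FOXA1 2 and GFP 2 and below them on GFP 6. MGST1 probes 2 and 3 are low on FOXA1 3, FOXA1 4 and GFP 3, and probe 4 is lowest on GFP 3. Lines only join a probe's points, since arrays have no order.

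How closely MGST1 followed the arrays that stood apart depended on the probe. The deviations of probe 2 from its group means had r = -0.95 with the leading component over 12 arrays, and 1.44% of the 15565 probes above background lay as far from 0. Probe 3 had r = -0.86, with 10.7% of probes as far from 0. Probe 4, the brightest, had r = -0.56, with 42.8% as far. GSTK1 had 0.70 and the brighter GSTO1 probe 0.74, while GSTP1 had -0.28 and MGST2 -0.01. Values as large as that of GSTK1 were met in 28.3% of probes. These coefficients describe arrays that also define the component, and their source was not tested. Without GFP 3, FOXA1 3 and FOXA1 4, 0 of 19 member probes passed the adjusted threshold and 1 lay under an unadjusted p of 0.05 in limma.

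Between members, the strongest relation was that of GSTK1 with MGST1 (Pearson's r = -0.76, permutation p = 0.0137, adjusted p = 0.104; Spearman's rho = -0.44, permutation p = 0.153). It was -0.64 in FOXA1 and -0.90 in GFP arrays and was -0.54 without both GFP 1 and GFP 3. On GFP 3 GSTK1 was highest and MGST1 lowest. With the level of FOXA1 itself, GSTM3 had the largest coefficient of the 8 members above background (Pearson's r = 0.71, permutation p = 0.0133, adjusted p = 0.104; Spearman's rho = 0.52, permutation p = 0.0837). It was 0.43 without FOXA1 3 and GFP 2, while GSTP1 had r = -0.22 with FOXA1 (permutation p = 0.495).

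The genes most like GSTA4, which had the largest SD over arrays among the highest-mean probes of the members, were TMEM50B and DAAM1 with r = 0.90, C5orf34 and PDCL3 with r = 0.86, and UTP14C with r = 0.85, over 12 arrays and 9569 other genes above background. Of the members, GSTA1 was the closest to GSTA4, with r = 0.57, above 96.7% of the genes compared. The likeness of GSTA1 rested largely on 2 arrays, since r was 0.2 without FOXA1 2 and GFP 6. Over all 12 arrays it did not pass the adjusted threshold (permutation adjusted p = 0.226 for Pearson's r, Spearman's rho = 0.48 with permutation p = 0.116). MGST2 was the farthest, with r = -0.49, and with -0.19 when GFP 4 and GFP 6 were left out.

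No gene of the surrounding pathways passed the test either. Of 93 genes on 6 lists, 85 were measured, 0 passed an adjusted p of 0.05 in limma in either direction, and 4 lay under an unadjusted p of 0.05, against 2.67% of all 20044 genes (536 in number). Of 16 other transferase genes, 9 were above background, 4 differences were above 0 and 12 below, with a median of -0.03. GSTO2, the second omega enzyme, differed by -0.14 and the theta-class GSTT2B by 0.07 (limma adjusted p = 1.00 for both).

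Among 17 genes of glutathione synthesis and turnover, 12 were above 0 and 5 below, with a median of 0.03. Glutathione synthetase, GSS, differed by 0.12 and the dipeptidase CNDP2 by 0.19. Among 17 peroxidases, reductases and glutaredoxins, 11 were above 0 and 6 below, with a median of 0.05. GLO1, which detoxifies methylglyoxal with glutathione as cofactor, ran from 13.52 to 13.70 on FOXA1 arrays and from 13.21 to 13.66 on GFP arrays. Its difference was 0.17, and the top 3 of the 12 arrays carried the FOXA1 plasmid (unadjusted p = 0.038 and adjusted p = 1.00 in limma). The glutaredoxin GLRX2 differed by -0.23.

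Among 19 measured genes of the NRF2 pathway and its targets, 12 were above 0 and 7 below, with a median of 0.04. MAFF, a small partner protein of NRF2, differed by -0.38 (unadjusted p = 0.0166 and adjusted p = 1.00 in limma, exact permutation p = 0.0519) and was above background on 9 of 12 arrays. The pentose phosphate enzyme PGD differed by 0.14. Of 5 measured exporters of conjugates, ABCC4 differed by 0.21 and ABCC5 by 0.11.

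Of 11 measured genes that write, read or remove DNA methylation, 7 were above 0 and 4 below, with a median of 0.03. DNMT1, the maintenance methyltransferase, ran from 12.17 to 12.79 on FOXA1 arrays and from 11.94 to 12.37 on GFP arrays, and the means differed by 0.25 (standard error 0.10). It did not pass the test over all probes (unadjusted p = 0.0285 and adjusted p = 1.00 in limma, exact permutation p = 0.0476). The glycosylase MBD4 differed by -0.26.

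**Figure D4:**
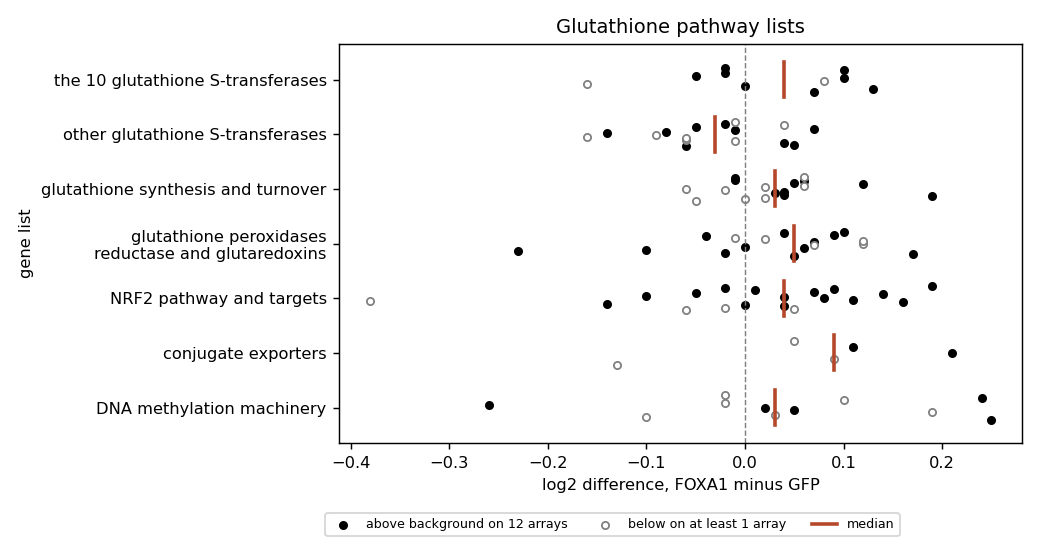
Log2 difference, FOXA1 minus GFP (horizontal axis), of each measured gene of the 10 transferases and of the 6 lists around them, with filled points for probes above background on 12 arrays, open points for the others, and a red bar at the median of a list. The medians lie between -0.03 and 0.09, and none of the genes passed an adjusted p of 0.05.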

How the data were processed

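Biotin-labelled cRNA was made from total RNA of 12 samples, per the labels' protocols. The authors deposited 2 tables of log2 intensities, 1 called non-normalized in its header (48107 probes) and 1 normalized (47323 probes); in the latter, array medians were equal to 2 decimals and each array's Spearman correlation with the first table was 1.00. Scanner software, and how background and normalization were computed, were not given in the sources used here. For tests, the normalized table was used as deposited, with no filter, so that members near background kept a value; 6 probes lacked a value on some array, and 47317 were tested. Probes were named through the platform annotation (30113 with 1 symbol, 8 with several, 17202 unlisted), and the probe with the highest mean stood for a gene. Groups and replicate numbers come from the titles.

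The test between groups was limma's moderated test (version 3.58.1, R 4.3.3), two-sided, on FOXA1 minus GFP, with Benjamini-Hochberg adjustment over all probes and a threshold of 0.05. Single values were tested by exact permutation over 924 splits, two-sided, with a smallest possible p of 0.00216, and correlations with 100000 permutations. On simulated data over 47317 probes, 17.8% of 1.25-fold changes, 80.6% of 1.5-fold and 98.2% of 2-fold changes were called. There, 200 probes were changed in each of 10 runs, with a mean of 11.2 false calls. Each probe's residuals were resampled on their own, so variation shared by probes over arrays was not kept. The rates may therefore differ from those of the real comparison. Precision is limited by the number of arrays. The members and lists were chosen with earlier results of these data known. The text names all members, FOXA1, and from each list the 2 genes above background with the smallest p; others named are examples chosen after their values were seen. Some listed genes are not analysed here. Alternatives covered normalization, filter, variance model, array weights, replicate block, probe choice, background limit and single arrays left out. Whether replicate numbers pair the arrays was not settled: deviations of same-numbered arrays correlated above 0.1 in 5 of 6 pairs, from -0.37 to 0.67.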

Additional observations from a re-analysis of the deposited data

Results flagged for a closer look

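In 40 sets of 6 arrays (19 member probes and FOXA1, in each group), 4 held 1 array far from the other 5; chance gives about 1 in 20 sets. GSTK1 on GFP 3 was 11.24, with the next array at 10.78. The brightest MGST1 probe on the same array was 12.17, with the next at 12.44, and GFP 3 is 1 of the arrays that stood apart. Below background, a GSTM1 probe on FOXA1 5 was 7.23, with the next at 6.95, and an MGST1 probe on GFP 2 was 6.02, with the next at 6.65.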

How the results depend on the processing

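In every alternative run, 0 of all probes and 0 of the member probes tested passed an adjusted p of 0.05; at an unadjusted p under 0.05, between 1311 and 1942 of all probes and at most 1 member probe were met with single arrays left out. With the replicate number as a block, 0 probes passed and 1690 lay under that unadjusted p, and 4 of 12 arrays were closest to the other group's array of their own number. The FOXA1 difference stayed above 0 and ran from 0.07 to 0.16 with single arrays left out, and it was 0.13 with the replicate block, 0.10 with median centring and 0.04 without GFP 3, FOXA1 3 and FOXA1 4, a choice made after seeing the data. Signs turned for members near 0: GSTP1 was 0.03 with median centring, 0.01 without those 3 arrays and from -0.08 to 0.04 with single arrays left out. With single arrays left out, GSTK1 ran from -0.05 to 0.09, GSTO1 from -0.09 to 0.01 and MGST2 from -0.05 to 0.01; GSTM1, GSTM2, GSTM3, GSTA1, GSTA4 and MGST1 were not reversed. The count of 8 genes above background was 8 in each array left out, 10 with the median of all probes as the limit, and 3 (GSTO1, MGST1 and MGST2) with the 99th percentile, 10.81, which lies among 11 bright probes of the extra set. With only probes above the median level, 15 of 19 member probes were tested and 525 of all probes lay under the unadjusted p, against 1502. Signal over background limits GSTM1, GSTM2 and, to a degree, GSTP1 and GSTM3.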
